A study of Mus musculus with 2 samples.

Results

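Hemoglobin-led barcodes are the droplets of 2 mouse liver single-cell libraries in which globin transcripts outnumbered all others. Members were chosen by their globin share. A barcode was a member when it held at least 500 UMIs (unique molecular identifiers, each counting 1 captured RNA molecule) and genes whose symbols start with Hba- or Hbb- took more than 50% of them. No limit was set on detected genes or on mitochondrial UMIs. The rule found 2682 of 8550 barcodes in the Control library and 140 of 4307 in the PCB126 library, 2822 of 12857 in all. Their globin levels are therefore a description.

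Each library came from the liver of 1 C57/BL6 mouse. The Control mouse was gavaged with peanut oil, although its treatment label reads "Untreated", and the other mouse received PCB126 at a dose labelled 20 µg/kg/day. This polychlorinated biphenyl is a strong ligand of the AHR, the aryl hydrocarbon receptor. Both mice had 5 weeks of exposure, a fast of 12 hours and an age label of postnatal day 21, which does not say to which point of the study it belongs. Both suspensions were spun and strained through 30 µm to remove hepatocytes, and red cells were lysed with 0.8% ammonium chloride, so the red cell barcodes described here are what was left after lysis. With 1 mouse a group, mouse, lysis, library and treatment cannot be told apart, no test was possible, and every interval given is an exact 95% interval that covers counting error only.

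Mammalian red cells lose their nucleus in the last step of maturation and enter the blood as reticulocytes, which still hold ribosomes, mitochondria and a shrinking store of messenger RNA. Nearly all of that store codes for the alpha and beta chains of hemoglobin, and the rest serves heme synthesis, iron supply, the membrane skeleton and the removal of organelles. Alas2 makes the rate-limiting enzyme of heme synthesis in erythroid cells, and Bpgm makes the enzyme that forms 2,3-bisphosphoglycerate, which loosens the grip of hemoglobin on oxygen.

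The genes that mark these barcodes carry short promoter elements known from erythroid genes, and their windows are shown here. The split of UMIs between Hba-a1 and Hba-a2, and between Hbb-bs and Hbb-bt, turns on how alike the transcripts are, which the promoter windows do not show. The sequences are the 250 bases before the RefSeq start in GRCm38.p6, written 5′ to 3′ on the gene's strand, for Hba-a1 at chr11:32283422-32283671 (plus strand), Hbb-bs at chr7:103827929-103828178 (minus strand), Hbb-bt at chr7:103813924-103814173 (minus strand) and Alas2 at chrX:150547167-150547416 (plus strand). Capitals mark matches, on either strand and with no overlaps between them, to the GATA core bound by GATA1, to the CACCC element bound by KLF1, to the CCAAT box and to the TATA-like letters ATATAA.
Hba-a1: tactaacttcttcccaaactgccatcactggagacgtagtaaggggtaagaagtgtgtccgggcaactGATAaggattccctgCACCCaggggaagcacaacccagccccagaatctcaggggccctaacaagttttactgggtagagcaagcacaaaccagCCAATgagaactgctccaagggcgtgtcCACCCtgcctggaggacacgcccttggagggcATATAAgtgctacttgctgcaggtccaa
Hbb-bs: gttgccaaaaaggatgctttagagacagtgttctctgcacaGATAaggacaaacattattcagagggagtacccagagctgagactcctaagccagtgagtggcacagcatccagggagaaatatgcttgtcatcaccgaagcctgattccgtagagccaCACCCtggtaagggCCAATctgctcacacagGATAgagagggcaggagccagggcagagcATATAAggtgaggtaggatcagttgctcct
Hbb-bt: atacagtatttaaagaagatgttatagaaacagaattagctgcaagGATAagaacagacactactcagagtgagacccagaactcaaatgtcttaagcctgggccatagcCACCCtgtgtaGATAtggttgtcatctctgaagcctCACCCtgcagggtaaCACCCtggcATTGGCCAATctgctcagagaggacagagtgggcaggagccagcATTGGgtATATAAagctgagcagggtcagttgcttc
Alas2: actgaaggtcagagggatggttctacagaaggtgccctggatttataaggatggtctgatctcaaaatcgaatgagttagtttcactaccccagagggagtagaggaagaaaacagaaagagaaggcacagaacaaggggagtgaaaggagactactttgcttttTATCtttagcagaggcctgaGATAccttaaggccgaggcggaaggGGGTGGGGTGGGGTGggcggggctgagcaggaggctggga
The 3 globin windows shown held ATATAA, which lay between 30 and 23 bases before the start, while the Alas2 window held no match to ATATAA and none to the CCAAT box. ATATAA occurred in 9.10% of 32851 promoter windows of this length, the CCAAT box in 33.9%, CACCC in 52.0% and GATA in 53.6%. Hba-a2 (window chr11:32296242-32296491) was identical to Hba-a1 over all 247 aligned bases. The last 300 bases of their transcripts, the part a 3′ library reads, were 99.65% identical over 284 aligned bases, with 32 gap columns besides. The split of UMIs between Hba-a1 and Hba-a2 is therefore uncertain. Hbb-bs and Hbb-bt matched at 77.4% of aligned promoter bases and 88.5% of the last 300 transcript bases.

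Hemoglobin-led barcodes were common in the Control library and rare in the PCB126 library. They made up 31.4% of Control barcodes (exact Clopper-Pearson interval 30.4% to 32.4%) and 3.25% of PCB126 barcodes (2.74% to 3.82%). The Control share was 9.65-fold the PCB126 share (8.14 to 11.5). Requiring over 80% globin left 498 and 52 barcodes and a 4.82-fold difference, and requiring over 90% left 7 and 1. Beside these shares stands the depth of the deposited barcodes, whose lowest total was 534 UMIs for Control and 865 for PCB126, so that the 500-UMI limit removed none. The members took in 91.8% of all globin UMIs of the Control library and 90.8% of those of the PCB126 library. Globin made up 2.56% of the UMIs of the remaining Control barcodes and 0.261% of those of the remaining PCB126 barcodes. The libraries shared 3 barcode sequences, and none of these was a member in both.

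**Figure D1:**
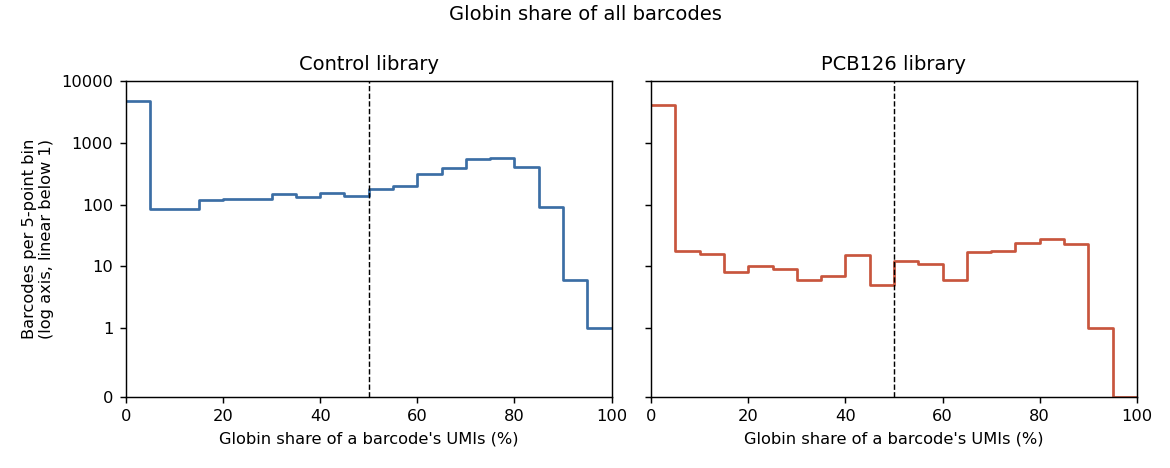
Number of barcodes (log axis, linear below 1) in bins of 5 percentage points of globin share, for the Control library (left) and the PCB126 library (right), with the 50% limit as a dashed line. Between 10% and 50% globin lay 1022 Control and 76 PCB126 barcodes, and the members had medians of 72.6% and 76.6%.

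The limit of 50% cut through a continuous range. Just inside it (50% to 55% globin) lay 179 Control and 12 PCB126 barcodes, and just outside it (45% to 50%) lay 142 and 5. Counts per 1000000 non-globin UMIs are called CPM here. Alas2 stood at 3798 CPM (404 UMIs) just inside and 3237 CPM (308 UMIs) just outside in the Control library, and at 1649 CPM (13 UMIs) and 1048 CPM (5 UMIs) in the PCB126 library.

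A typical member was a droplet with many globin molecules and few others. The Control members had a median of 2371 UMIs, 615 non-globin UMIs and 89.5 detected genes. The PCB126 members had a median of 3376 UMIs, 798 non-globin UMIs and 70 detected genes. A filter of at least 250 genes and at most 20% mitochondrial UMIs, of the kind used to keep cells, would have kept 31 Control members and 0 PCB126 members (0 of 140, which allows a share of up to 2.60%, exact Clopper-Pearson). The low gene number excluded nearly all of them, since 2650 of the Control members and all 140 PCB126 members had fewer than 250 genes.

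The adult globins appeared in nearly the same proportions in both libraries. Hbb-bs, an adult beta chain gene, took 49.5% of the globin UMIs of Control members and 49.9% of those of PCB126 members. Hba-a1 took 23.8% and 23.9%, Hba-a2 17.9% and 18.2%, and Hbb-bt, the other adult beta chain, 8.83% and 7.97%. Alpha chains together made up 41.7% of adult globin UMIs in the Control members and 42.1% in the PCB126 members, which is a share of captured transcripts and not of protein. Of beta globin UMIs, Hbb-bt held 15.1% (15.1% to 15.2%) in the Control members and 13.8% (13.6% to 13.9%) in the PCB126 members, a difference larger than the counting error. Single members spread far more widely than that, from 2.24% at the 5th percentile to 21.99% at the 95th in the Control library and from 1.55% to 22.1% in the PCB126 library. Embryonic globins were all but missing, with 1 UMI of Hbb-y in the Control members and none of Hbb-bh1, Hbb-bh2 or Hba-x in either library. The theta globins, which the member rule did not count, gave 103 and 10 UMIs of Hbq1a and 104 and 2 UMIs of Hbq1b.

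The non-globin UMIs of the members were mostly mitochondrial RNA and the transcripts Gm42418, AY036118 and Lars2, which overlap or resemble ribosomal RNA sequence. In the Control members mitochondrially encoded genes took 40.7% of non-globin UMIs, the Gm42418 group 38.8% and all other genes, called nuclear mRNA here, 20.5%. In the PCB126 members the 3 shares were 71.0%, 17.6% and 11.4%. Per barcode, the median Control member held 247 mitochondrial UMIs, 232 of the Gm42418 group and 103 of nuclear mRNA, against 548, 120 and 72.5 in the median PCB126 member. The PCB126 members thus had more globin and more mitochondrial UMIs per barcode, and fewer of the Gm42418 group and of nuclear mRNA. As a share of non-globin UMIs the mitochondrial part was 1.75-fold higher in PCB126 (1.73 to 1.76) and the Gm42418 group was 0.454 times the Control level (0.448 to 0.461).

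These gaps were not found in the hemoglobin-led barcodes alone. Among other barcodes with fewer than 250 genes, a comparison set added after the data were seen, the mitochondrial share was 54.97% in the Control and 77.1% in the PCB126 library (1.40-fold), and the Gm42418 group took 29.5% and 9.19% (0.312 times). Nuclear mRNA differed less there than in the members, with 15.6% and 13.7% (0.880 times, against 0.555 times in the members). Ribosomal protein genes behaved likewise, at 0.486 times the Control level in the members and 1.05 times in the shallow other barcodes. Over all other barcodes the mitochondrial share was 15.41% in the Control and 23.37% in the PCB126 library (1.52-fold). The Gm42418 group took 12.56% and 10.98% there (0.874 times), a smaller gap than in the members or the shallow barcodes. The shallow Control barcodes also reached higher globin shares, with a 95th percentile of 43.66% against 11.27% in the PCB126 library. Whether the gaps outside the members shape the member values was not tested.

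**Figure D2:**
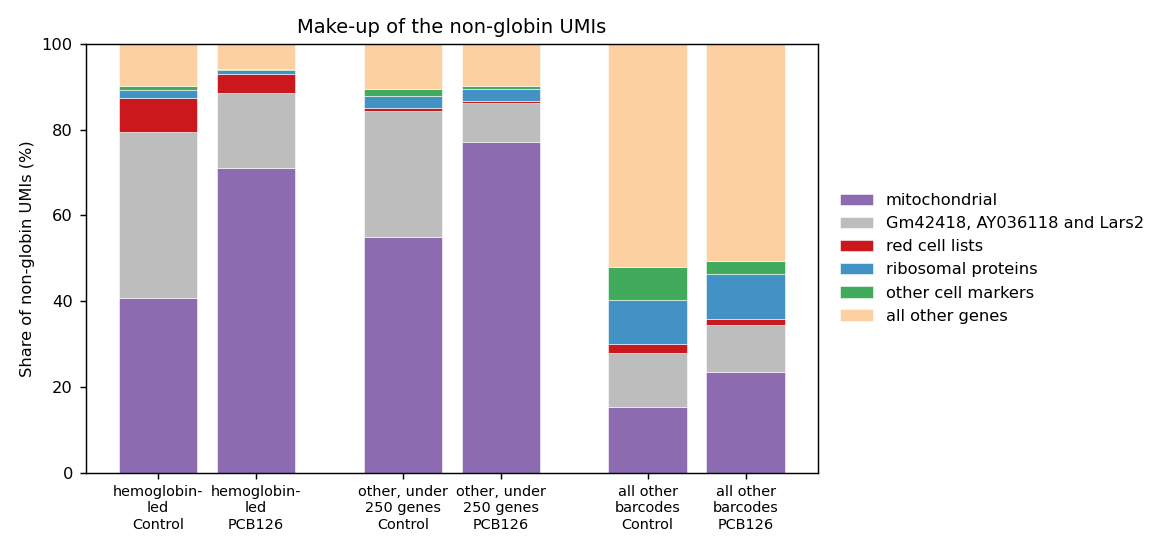
Stacked bars of the share of non-globin UMIs (%) taken by each gene class, for hemoglobin-led barcodes, other barcodes with under 250 genes and all other barcodes, in each library. Mitochondrial genes fill 40.7% of the Control and 71.0% of the PCB126 bar of hemoglobin-led barcodes, and red cell lists 7.88% and 4.49%.

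The 13 mitochondrial genes did not move as one. Of these, 10 were higher in PCB126 and 3 lower on the non-globin scale. The largest ratio was that of mt-Nd1, a complex I subunit, with 21612 CPM in the Control and 45682 in the PCB126 members (2.11-fold, 2.05 to 2.18). The cytochrome oxidase subunit mt-Co1 was 1.98-fold higher and the ATP synthase subunit mt-Atp6 1.84-fold. At the other end mt-Nd3 stood at 12032 and 8684 CPM (0.722 times, 0.677 to 0.769), mt-Atp8 at 0.888 times and mt-Nd6 at 0.897 times, whose interval included 1. In the remaining barcodes mt-Nd3 was also lower in PCB126 (0.697 times) and mt-Nd1 higher (1.65-fold).

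Red cell genes held a larger share of the nuclear mRNA in members than in other barcodes. The 7 red cell lists (heme synthesis, iron handling, membrane and skeleton, metabolism, antioxidants, organelle clearance and late erythroid genes) held 38.4% of nuclear mRNA UMIs in the Control members and 39.4% in the PCB126 members. In the remaining barcodes they held 2.75% and 2.20%, and in the shallow ones 4.13% and 2.26%. Ribosomal protein genes held 9.14% and 8.00% of the members' nuclear mRNA, and genes on none of these lists or the other-cell lists 47.9% and 50.3%. Alas2 was 100-fold higher per non-globin UMI in members than in other barcodes of the Control library and 1179-fold in the PCB126 library, and Bpgm 105-fold and 313-fold. The other barcodes of the Control library held more Alas2 (93.2 CPM) than those of the PCB126 library (4.33 CPM), which lowers the first of these ratios. After thinning each barcode to 500 UMIs, Alas2 had a UMI in 63.7% of Control members (61.8% to 65.5%) and 37.1% of PCB126 members (29.1% to 45.7%), against 7.72% and 0.480% of the other barcodes. Unthinned, the shares were 90.9% and 83.6% of members and 11.4% and 0.984% of other barcodes, at median depths of 2371 and 3376 UMIs in members and 919 and 1818 in the others. Most UMIs of both red cell markers that the rule did not use lay in these barcodes. By number of barcodes this did not hold for Bpgm in the PCB126 library. Unthinned, it had a UMI in 74 members (52.9%) and 99 other barcodes (2.38%) there.

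Of the genes with at least 100 UMIs over members and other barcodes, 265 of 9427 (2.81%) were at least 2-fold higher in Control members than in the other Control barcodes, and 126 of 9601 (1.31%) in PCB126 members. Against the shallow other barcodes the counts were 232 of 966 (24%) and 35 of 308 (11.4%). Since the members were cut from the same barcodes by their globin share, these ratios describe them and test nothing. Among the 15 genes that led in both libraries, Epb41, the skeletal protein 4.1, was 52.0-fold and 46.0-fold higher in members. Fech, which inserts iron into heme, was 53.6-fold and 42.0-fold higher. The ubiquitin ligase gene Mkrn1 was 36.7-fold and 52.2-fold higher, Ube2l6 89.5-fold and 120-fold, and Ube2o, which clears ribosomal proteins from reticulocytes, 67.2-fold and 43.2-fold. Rsad2 and Isg20, better known as interferon-stimulated genes, were 58.1-fold and 19.0-fold, and 31.8-fold and 43.6-fold, higher in members.

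Most of these genes gave less per non-globin UMI in PCB126 members than in Control members. Of 416 non-globin genes with at least 100 UMIs in the members, 232 (55.8%) were at most 0.5 times the Control level and 1 (0.24%), mt-Nd1, was at least 2-fold higher. The median log2 ratio over these genes was -1.07. Counted against nuclear mRNA UMIs only, which takes the mitochondrial genes and the Gm42418 group out of the total, the median was -0.24, with 111 of 400 genes (27.8%) at most 0.5 times and 21 (5.25%) at least 2-fold higher. Where 2 ratios of PCB126 over Control are given below, the first is on the non-globin scale and the second on the nuclear mRNA scale, because the step from one to the other multiplies each ratio by the same factor and turns many directions.

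**Figure D3:**
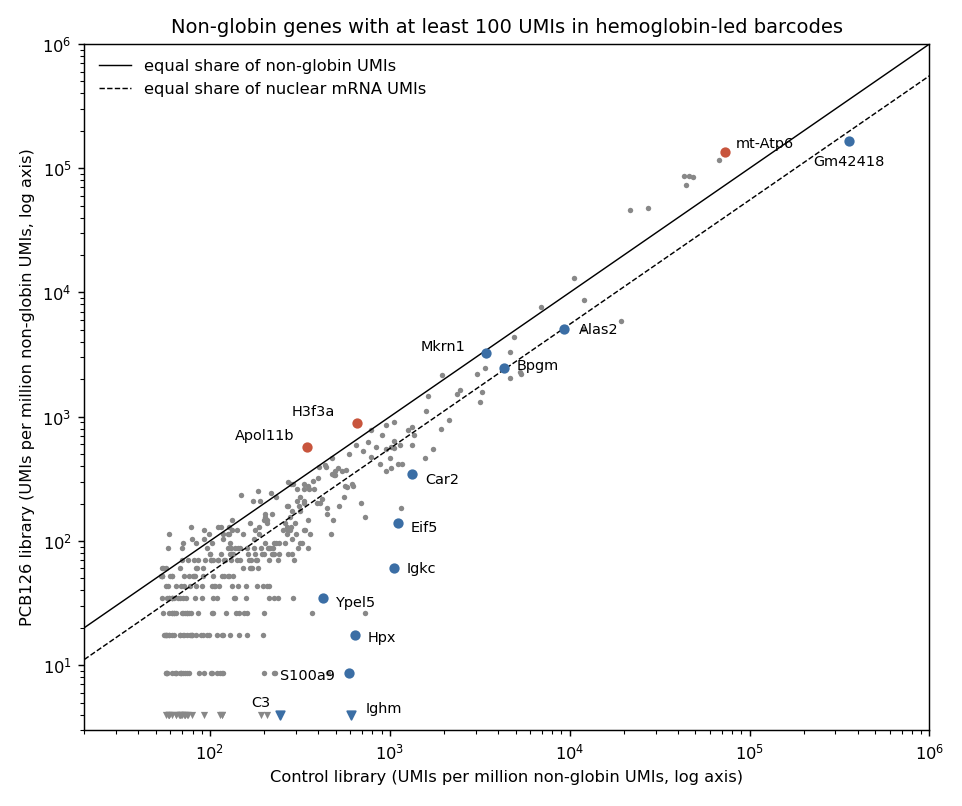
Each point is a non-globin gene with at least 100 UMIs over the members, placed by its CPM in Control (x, log axis) and PCB126 (y, log axis). Triangles at the bottom edge mark genes with 0 PCB126 UMIs, and red and blue mark named genes above and below equality. Alas2 and Bpgm lie near the dashed line of equal nuclear mRNA share, while Ighm, Hpx and S100a9 lie far below it.

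Heme synthesis kept its place within the nuclear mRNA. Alas2 had 16486 UMIs in the Control members and 586 in the PCB126 members, or 9338 and 5104 CPM. Its ratio was 0.547 (0.503 to 0.594) on the non-globin scale and 0.985 (0.906 to 1.07) on the nuclear mRNA scale. Fech had 3759 and 107 UMIs, with ratios of 0.438 and 0.789 (0.645 to 0.956). Slc25a39, the mitochondrial glutathione carrier tied to heme production, had 1392 and 90 UMIs, with ratios of 0.994 and 1.79 (1.43 to 2.22). Of the 16 genes of this list 8 had at least 20 UMIs, of which 7 were lower in PCB126 on the non-globin scale and 4 on the nuclear mRNA scale. Their median log2 ratios were -0.74 and 0.11, where all 1348 genes with at least 20 UMIs had -0.81 on the first scale and 1332 had 0.00 on the second. Over all these genes, 1052 were lower in PCB126 and 296 higher on the first scale, and 659 lower and 673 higher on the second. Those totals are the background for the counts of each list below.

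Iron genes showed the same balance, with median log2 ratios of -0.84 and 0.01 over 8 genes. Slc25a37, or mitoferrin 1, which carries iron into mitochondria, had 5631 and 152 UMIs and ratios of 0.415 and 0.748 (0.633 to 0.879). The ferritin light chain gene Ftl1 had 5941 and 282 UMIs and ratios of 0.730 and 1.32 (1.16 to 1.48). Tfrc, the transferrin receptor through which immature red cells take up iron, gave 77 and 2 UMIs, and after thinning had a UMI in 0.522% of Control and 0.714% of PCB126 members, against 0.341% and 0.288% of the other barcodes.

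The membrane genes were split. Of 21 membrane and skeleton genes with at least 20 UMIs, 18 were lower in PCB126 on the non-globin scale, and on the nuclear mRNA scale 12 were higher and 9 lower. Their median log2 ratios were -0.54 and 0.31, whereas the summed level of the list was 0.770 times the Control level on the nuclear mRNA scale, so the median and the sum differ in sign there. Slc4a1, the band 3 anion exchanger, had 1671 and 42 UMIs and ratios of 0.387 and 0.697 (0.5002 to 0.946). Epb41 had 8220 and 236 UMIs and ratios of 0.442 and 0.796 (0.696 to 0.906). Epb42, or protein 4.2, was named after its values were seen, having 201 UMIs in the Control and 0 in the PCB126 members.

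Genes of red cell metabolism and of defence against peroxide split by gene. Bpgm, with 7584 and 281 UMIs, had ratios of 0.570 (0.504 to 0.642) and 1.03 (0.909 to 1.16). Carbonic anhydrase Car2 had 2358 and 40 UMIs and ratios of 0.261 (0.186 to 0.356) and 0.470 (0.335 to 0.642). Catalase, Cat, was similar to Car2 with 1220 and 23 UMIs and ratios of 0.290 and 0.523 (0.330 to 0.788). Glutathione peroxidase Gpx1 had 8212 and 380 UMIs and ratios of 0.712 and 1.28 (1.15 to 1.42). The antioxidant list had median log2 ratios of -0.49 and 0.36 over 11 genes, and the metabolism list -0.81 and 0.04 over 7.

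The organelle clearance list covers mitophagy, autophagy and ubiquitin enzymes. Mkrn1, a ubiquitin ligase, had 6039 and 373 UMIs, or 3421 and 3249 CPM, and ratios of 0.9497 (0.853 to 1.06) and 1.71 (1.54 to 1.90). The ubiquitin gene Ubb had 6045 and 359 UMIs and ratios of 0.913 and 1.65 (1.48 to 1.83). Bnip3l, or Nix, the receptor through which reticulocytes dispose of mitochondria, had 5767 and 180 UMIs and ratios of 0.480 and 0.865 (0.742 to 1.00). Ube2o, with 2770 and 53 UMIs, had ratios of 0.294 and 0.530 (0.396 to 0.696). Of 21 genes, 20 were lower in PCB126 on the non-globin scale and 8 on the nuclear mRNA scale, and the median log2 ratios were -0.70 and 0.15. Mkrn1 moved with depth as well, since its log2 ratio on the non-globin scale was -0.07 over all members and -0.59 when bins of total UMIs were weighted equally.

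Among the late erythroid genes Fam46c, a poly(A) polymerase gene, had 9354 and 265 UMIs and ratios of 0.436 and 0.785 (0.692 to 0.887). Fam220a went the other way on the nuclear mRNA scale, with 2890 and 168 UMIs and ratios of 0.894 and 1.61 (1.37 to 1.88). All 18 genes with at least 20 UMIs were lower in PCB126 on the non-globin scale and 11 on the nuclear mRNA scale, with median log2 ratios of -1.03 and -0.18. Among all genes with at least 20 UMIs, 1052 of 1348 and 659 of 1332 were lower. Ribosomal protein genes, which reticulocytes shed as they mature, had medians of -1.13 and -0.28, with 75 and 50 of 76 genes lower in PCB126.

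**Figure D4:**
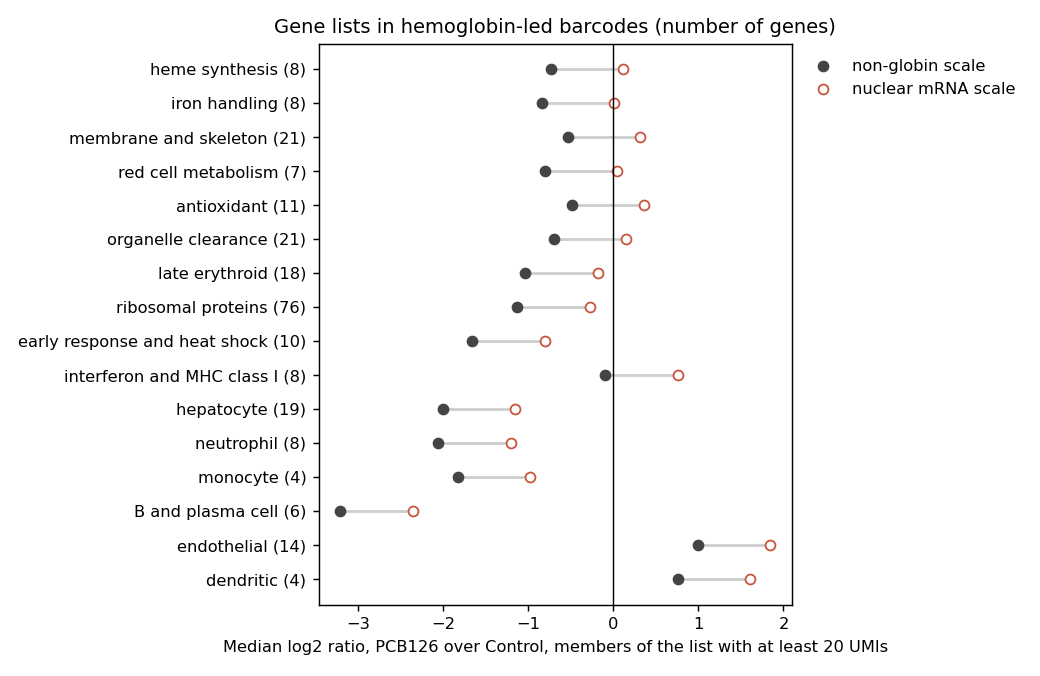
Median log2 ratio of PCB126 over Control for each gene list (number of genes with at least 20 UMIs in brackets), on the non-globin scale (filled) and the nuclear mRNA scale (open). The red cell lists lie between -1.03 and -0.49 on the first scale and between -0.18 and 0.36 on the second, while hepatocyte, neutrophil, monocyte and B and plasma cell lists stay below 0 and endothelial and dendritic lists above 0 on both.

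A few genes departed from the rest in either direction. Apol11b, an apolipoprotein L family gene, had 612 and 65 UMIs and ratios of 1.63 (1.25 to 2.11) and 2.94 (2.24 to 3.81), although its log2 ratio on the non-globin scale was 0.06 with bins of total UMIs weighted equally and -0.07 after thinning. It was a member transcript, 143-fold higher in members than in other barcodes of the Control library and 1112-fold in the PCB126 library. H3f3a, which encodes the replication-independent histone H3.3, had 1159 and 102 UMIs and ratios of 1.35 and 2.44 (1.97 to 2.99), and its log2 ratio on the non-globin scale was -0.09 with the depth bins weighted equally. Lower in PCB126 were Eif5, a translation initiation factor gene, with 1954 and 16 UMIs and ratios of 0.126 and 0.227 (0.130 to 0.370), and Ypel5 with 750 and 4 UMIs and ratios of 0.0820 and 0.148 (0.0402 to 0.380). Both were less reduced in the other barcodes, where their nuclear mRNA ratios were 0.774 and 0.644, and that difference was not tested.

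Transcripts of other cell types were a small part of the members and as a sum differed more between the libraries than the red cell lists did. The 11 marker lists of other cell types together held 0.943% of non-globin UMIs in Control members and 0.257% in PCB126 members (0.273 times, 0.242 to 0.306), which is 4.59% and 2.26% of nuclear mRNA. Hepatocyte markers were the most abundant in both, at 5404 and 1298 CPM. In the shallow other barcodes they stood at 8341 and 2459 CPM, so that the member level was 0.648 and 0.528 times that of the shallow barcodes of the same library. Their median log2 ratios over the shallow barcodes, -0.66 and -0.95, were above the all-gene medians of -1.04 and -1.64. Over all other barcodes the summed member level was 1.65-fold higher in the Control library and 1.02-fold (0.865 to 1.20) in the PCB126 library. All 19 hepatocyte markers with at least 20 UMIs were lower in PCB126 on the non-globin scale and 17 on the nuclear mRNA scale, with median log2 ratios of -2.01 and -1.16. Albumin, Alb, had 3067 and 63 UMIs and ratios of 0.316 and 0.569. The plasma protein genes Hpx, whose product binds free heme, and Hp, whose product binds free hemoglobin, had 1126 and 2 UMIs and 1289 and 3 UMIs, that is 36.6-fold (10.1 to 303) and 27.9-fold (9.54 to 136) less in PCB126 on the non-globin scale, and 20.3-fold and 15.5-fold less on the nuclear mRNA scale. In the other barcodes Hpx had ratios of 0.0467 and 0.0512.

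Neutrophil, monocyte, B cell and plasma cell transcripts were also lower in PCB126 members. The neutrophil list stood at 1386 CPM in Control members and 78.4 in PCB126 members (17.7-fold apart, and 9.81-fold on the nuclear mRNA scale). The B and plasma cell list stood at 1865 and 87.1 CPM (21.4-fold, and 11.9-fold on the nuclear mRNA scale). S100a9, a neutrophil calcium-binding protein gene, had 1048 UMIs in the Control and 1 in the PCB126 members. Ighm, the immunoglobulin mu heavy chain gene, had 1075 and 0, which makes it at least 23.3-fold higher in the Control members, and at least 12.9-fold on the nuclear mRNA scale, against a floor of 3 counts over the members. The ratios of these genes in the remaining barcodes were low as well, at 0.0891 and 0.0977 for S100a9 and 0.0450 and 0.0494 for Ighm. Kupffer cell markers were at 0 for all 10 genes in the PCB126 members, where 0 UMIs allow up to 26.1 CPM. In the Control members they gave 50 UMIs, or 28.3 CPM, of which 16 lay in 1 member. The interval of their ratio (0 to 1.18) included 1, so the libraries cannot be told apart on this list. Lineage markers of platelets were also scarce, with 12 of 13 at 0 in PCB126 members and 5 of 13 in Control members. They gave 73 UMIs in the Control and 1 in the PCB126 members, a ratio of 0.211 whose interval (0.00526 to 1.21) included 1. The remaining lists were small. Monocyte markers gave 281 and 5 UMIs, or 159 and 43.6 CPM (0.274 times, 0.0882 to 0.646). On the nuclear mRNA scale their ratio was 0.493, with an interval that included 1 (0.159 to 1.17). Cholangiocyte markers gave 56 and 4 UMIs, or 31.7 and 34.8 CPM (1.10-fold, 0.289 to 2.97), and were not lower in PCB126. Stellate cell and fibroblast markers gave 55 and 1 UMIs (0.280 times, 0.00695 to 1.62, an interval that included 1). Stress genes, which can respond to dissociation, gave 728 and 13 UMIs (0.275 times on the non-globin scale, 0.146 to 0.473, and 0.495 times on the nuclear mRNA scale).

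Endothelial, dendritic and T and NK cell markers went the other way. The endothelial list gave 363 CPM in Control and 732 in PCB126 members (2.02-fold, 1.59 to 2.53, and 3.63-fold on the nuclear mRNA scale), with 13 of 14 genes higher in PCB126 on both scales and median log2 ratios of 1.00 and 1.85. In the shallow other barcodes it stood at 1238 and 2545, a ratio of the same direction. Kdr, the main receptor for vascular endothelial growth factor, had 39 and 10 UMIs, and the sinusoidal markers Ptprb and Ehd3 had 138 and 15, and 77 and 9. The dendritic and MHC class II list stood at 116 and 235 CPM, with all 4 genes that had at least 20 UMIs higher in PCB126 on both scales. The T and NK cell list rested on 4 and 5 UMIs, or 2.27 and 43.6 CPM (19.2-fold, 4.14 to 96.9, and 34.6-fold on the nuclear mRNA scale). In the Control library 60.2% of members held at least 3 UMIs of 1 of the 11 lists, against 15% in the PCB126 library. With those members left out, the log2 ratio of the mitochondrial share was 0.75 in place of 0.80 and that of nuclear mRNA -0.77 in place of -0.85.

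RNAs of nuclei and of dividing cells were lower in the members than in all other barcodes of either library. Malat1, a long RNA that stays in the nucleus, stood at 594 CPM in Control and 505 in PCB126 members, 0.0270 and 0.0262 times the level of the other barcodes. Against the shallow other barcodes its level was 0.4498 and 0.199 times. Progenitor and cell cycle genes gave 190 UMIs in all Control members, with 44 of Mki67, and 5 UMIs in all PCB126 members. Their summed level was 0.0857 and 0.0444 times that of all other barcodes and 0.582 and 0.428 times that of the shallow ones, whereas Mki67 was 2.00-fold higher (1.24 to 3.26) in Control members than in shallow Control barcodes. The median log2 ratio of this list over all other barcodes was -3.19 in the Control and -1.75 in the PCB126 library. All genes compared had medians of -3.275 and -1.615, so the lower level of this list was near that of a typical gene. For the nuclear RNAs the medians were -5.11 and -3.24, over 3 genes. Over the shallow other barcodes the nuclear RNA medians were -1.26 and -1.55, over 2 genes. All genes compared had medians of -1.04 and -1.64 there, so against shallow barcodes this list was near a typical gene. Gata1, the transcription factor that directs red cell formation, was seen in 6 of the 2682 Control members (0.224%) and in 0 of the 140 PCB126 members, which allows a share of up to 2.60%. The 14 erythroid regulators gave 934 and 23 UMIs. E2f2 led them with 587 and 14 UMIs and ratios of 0.367 and 0.661 (0.359 to 1.12).

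The AHR battery was scarcely seen in these barcodes. Cyp1a1, the classical AHR target, gave 7 UMIs in the Control members and 8 in the PCB126 members, or 3.97 and 69.7 CPM (17.6-fold, 5.57 to 56.9, and 31.7-fold on the nuclear mRNA scale). The PCB126 member level was 0.0360 times that of the other PCB126 barcodes, of which 49.3% held a Cyp1a1 UMI (median depth 1818 UMIs), against 5.71% of the members (median depth 3376 UMIs). After thinning to 500 UMIs no PCB126 member held one, against 32.5% of the other barcodes. Whether these few UMIs came from the members or from free RNA was not tested. Cyp1a2 had 21 and 0 UMIs, Tiparp 8 and 0, and Nqo1 5 and 0. In the PCB126 members 0 UMIs allow up to 26.1 CPM, and all 9 genes of the AHR list together stood at 26.6 CPM in Control members. The counts of 0 therefore do not show a difference between the libraries.

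Among members, the globin share ran with the make-up of the rest. From members of 50% to 60% globin to those of over 80%, the mitochondrial part went from 51.6% to 33.9% of non-globin UMIs in the Control library and from 82.4% to 61.2% in the PCB126 library. The Gm42418 group went from 34.1% to 41.8% and from 10.2% to 23.3%. Red cell lists took 25.5% of nuclear mRNA in the lowest bin and 43.9% in the highest in the Control library, and 26.5% and 45.8% in the PCB126 library. The libraries were thus close in red cell content of the nuclear mRNA at like globin share, while their mitochondrial shares stayed apart in every bin. The lowest bin held 380 Control and 23 PCB126 members, at median depths of 1196 and 1469 UMIs, and the highest 498 and 52, at 3286 and 5194, so depth was higher where globin share was.

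**Figure D5:**
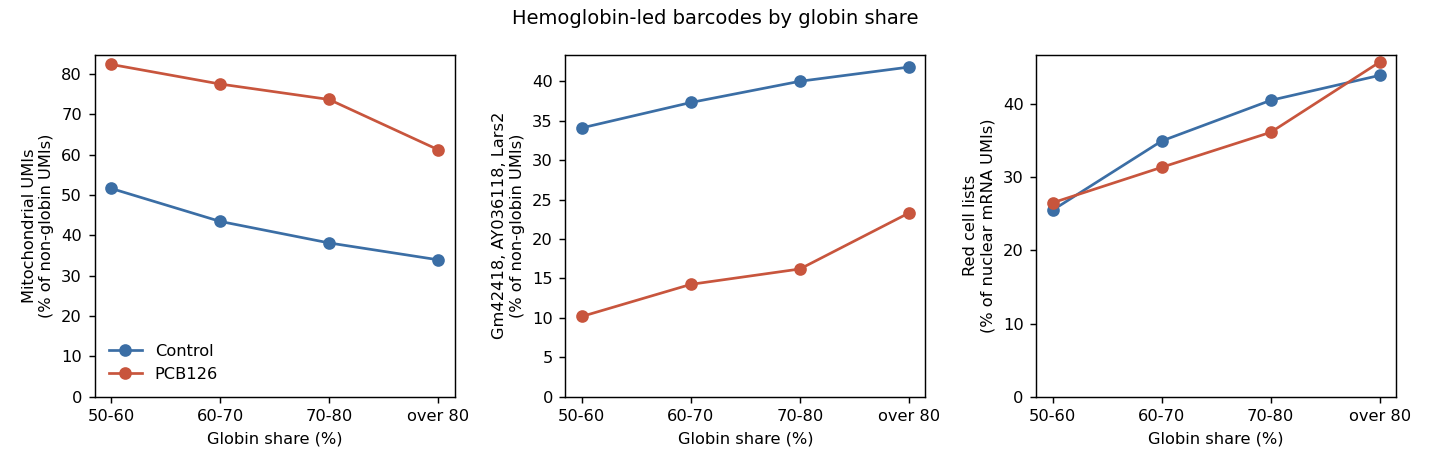
Members in 4 bins of globin share (x, %), with the mitochondrial share (left) and the share of Gm42418, AY036118 and Lars2 (middle) in % of non-globin UMIs, and the red cell lists (right) in % of nuclear mRNA UMIs, one line per library. The mitochondrial lines run from 51.6% to 33.9% in Control and from 82.4% to 61.2% in PCB126 and do not cross, while the red cell lines lie close together.

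The share of Hbb-bt among beta globin transcripts ordered the members in a like way. These bins were chosen after the values were seen. Control members with under 5% Hbb-bt numbered 355, with a median of 1293 UMIs and 53 nuclear mRNA UMIs, and those with over 20% numbered 311, with 3639 and 198. In the PCB126 library the 33 members under 5% had medians of 1862 and 33, and the 13 members over 20% had 6462 and 160. Across the same bins mitochondrial genes took 51.8% and 34.0% of non-globin UMIs in the Control library and 81.2% and 55.9% in the PCB126 library. Red cell lists took 16.6% and 43.6% of nuclear mRNA in the Control library and 20.7% and 44.9% in the PCB126 library. Alas2 varied less, at 3.64% and 4.32% of nuclear mRNA in the Control library and 3.33% and 4.96% in the PCB126 library. Its course was not a steady rise, since its share was highest in members of 10% to 15% Hbb-bt, at 5.00% in the Control and 5.33% in the PCB126 library. The bins share the members' depth and library, so this is a description of how the values ran together. Members with under 5% Hbb-bt were 13.2% of Control members and 23.6% of PCB126 members.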

How the data were processed

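Droplet 3′ libraries of 2 livers, each loaded for a target of 6000 cells, were deposited as raw UMI counts per gene and barcode, not normalized by the authors. Deposited gene and barcode lists gave identifiers (other content than measurements). Per the file headers Cell Ranger 6.0.0 wrote the matrices. Cell Ranger 6.1.1 and Seurat 4.0.1 appear in the submitters' processing notes. For the genome build and any multi-mapping rule, nothing is given in the sources used here, and 34049 of 34244 gene IDs occur in GENCODE M21. The libraries held 24134912 (Control) and 16269562 (PCB126) UMIs, of which the members held 6733584 and 519828, so PCB126 values carry the larger counting error.

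Member UMIs were summed per library and scaled to 1000000 non-globin UMIs (1765416 and 114815), and again to nuclear mRNA UMIs (362592 and 13081), without mitochondrial genes, Gm42418, AY036118 and Lars2. Intervals were Clopper-Pearson for shares and conditional binomial for ratios, and 0.5 counts were added for log2. UMIs are counted molecules of 1 library, and intervals cover counting error only. A gene was called at a ratio of at least 2 or at most 0.5. A floor was 3 counts over the members. No doublet caller was run, and members with 3 or more UMIs of 1 other-cell list were left out as an alternative.

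Named genes were the 6 markers, the 12 genes farthest from equality in each direction by interval bound, the 15 most abundant in each library, the 15 leading over other barcodes and 4 of each list by UMIs. Some genes that this rule names are not reported here. Tfrc, Gata1, Epb42, mt-Atp8 and mt-Nd6 were named after their values were seen. The members and the 27 lists were chosen with earlier results of these data known. Alternatives changed the barcode limits, totals, weighting, thinning and gene minimum. The ratio and thinning code was tested on simulated data. Python 3.11.15, numpy 2.4.6, scipy 1.17.1, pandas 2.3.3, Biopython 1.88 and matplotlib 3.10.9 were used.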

Additional observations from a re-analysis of the deposited data

Results flagged for a closer look

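Apol11b stood out because the libraries differed in opposite directions in hemoglobin-led and in other barcodes, by at least 2-fold each way, which no other gene with at least 100 UMIs in the members did. On the nuclear mRNA scale it was 2.94-fold higher in PCB126 in the members (612 and 65 UMIs) and 0.231 times the Control level in the remaining barcodes (41 and 8 UMIs). The difference between these ratios was not tested, and the remaining barcodes gave few UMIs of the gene.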

How the results depend on the processing

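Each group is 1 library, so no library could be left out and mouse and treatment cannot be told apart. No paired analysis was possible because each group has 1 sample. The 140 PCB126 members with 13081 nuclear mRNA UMIs limit every gene ratio. Members with over 90% globin (7 and 1) or at least 250 genes (32 and 0) were too few for gene ratios. Leaving out shared barcodes changed nothing beyond counting error. The limit of 250 UMIs could change nothing, since the lowest totals were 534 and 865 UMIs and the same barcodes were chosen. Where a value below moved, the cause was not tested beyond what the setting itself removes.

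Members in percent of Control and PCB126 barcodes, with the ratio of these shares, were 47.6, 3.54 and 13.4 with at least 1000 UMIs, 38.1, 4.02 and 9.48 with over 30% globin, 5.83, 1.21 and 4.82 with over 80%, 0.0819, 0.0232 and 3.53 with over 90%, and 53.9, 6.74 and 8.01 among barcodes with at most 20% mitochondrial UMIs. With at least 250 genes they were 1.39% and 0%. The median globin percent of Control members was 73.4, 69.7, 82.4, 74.7 and 67.3 with at least 1000 UMIs, over 30% globin, over 80% globin, at most 20% mitochondrial UMIs and at least 250 genes. That of PCB126 members was 72.1, 84.5 and 81.4 with over 30%, over 80% and at most 20% mitochondrial UMIs.

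Genes at least 2-fold higher in PCB126, 1 on the non-globin scale, numbered 5 with over 30% globin, 3 with over 80%, 4 with at most 20% mitochondrial UMIs, 0 with all UMIs as total, 21 on the nuclear mRNA scale, 3 with depth bins weighted equally and 36 of 1348 with a minimum of 20 UMIs. Genes at most 0.5 times numbered 32 of 127 with over 80% globin, 92 of 207 without members holding other-cell markers, 66 of 130 after thinning, 111 of 400 on the nuclear mRNA scale, 742 of 1348 with a minimum of 20 UMIs and 60 of 137 with 500. Genes at least 2-fold higher in members than in other barcodes of both libraries, 121 of 8890, numbered 258 on the nuclear mRNA scale, 69 with a minimum of 500 UMIs and 34 of 301 against the shallow barcodes.

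The log2 ratios of the mitochondrial, Gm42418-group and nuclear mRNA shares, 0.80, -1.14 and -0.85, were 0.78, -1.25 and -0.73 with over 30% globin, 0.85, -0.84 and -0.65 with over 80%, 0.79, -0.91 and -0.64 with at most 20% mitochondrial UMIs, 0.56, -1.39 and -1.10 with all UMIs as total, 0.86, -1.33 and -1.05 with depth bins weighted equally, 0.76, -1.27 and -0.92 after thinning, and 0.75, -1.10 and -0.77 without members holding other-cell markers. The mitochondrial value was 0.82 with at least 1000 UMIs and 0.76 with barcodes weighted equally, where nuclear mRNA was -0.82, and the Gm42418 value was -1.16 without the deepest 1% of members. All kept their direction.

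Shares of members with an Alas2 UMI, 63.7% and 37.1% at 500 UMIs, were 90.9% and 83.6% unthinned and 32.8% and 20.7% after thinning to 50 non-globin UMIs, and those with Bpgm were 66.7% and 52.9% unthinned, 34.0% and 20.7% at 500 UMIs, and 16.4% and 9.29% at 50 non-globin UMIs. Of 1039 values of named genes under alternatives 43 had the opposite sign, 17 of them on the nuclear mRNA scale and 26 under other alternatives. Among these were 3 of genes at least 2-fold apart in the reported value. Hspa8, with a log2 ratio of -1.30, was at 0.022 after thinning, and Dusp1 (-1.71) and Jun (-3.78) were at 0.61 and 0.88 with over 30% globin. Endothelial and dendritic list medians stayed above 0 and hepatocyte, neutrophil, monocyte and B and plasma cell medians below 0 under every alternative that gave a value, whereas the heme, iron, membrane, metabolism, antioxidant and organelle lists were above 0 on the nuclear mRNA scale and below 0 on the non-globin scale.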

Other observations

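The list of 11 interferon-stimulated and MHC class I genes, not described as a group above, had 3 genes higher and 8 lower in members than in other barcodes of either library. Most genes were lower in members, with an all-gene median log2 ratio of -3.275 in the Control and -1.615 in the PCB126 library. The list had medians of -2.59 and -3.55, above that background in the Control library and below it in the PCB126 library. This depended on the comparison set. Over the shallow other barcodes the list medians were -1.06 and -1.08, against all-gene medians of -1.04 and -1.64, near background in the Control library and above it in the PCB126 library. Rsad2 had 3412 and 92 UMIs in Control and PCB126 members, with ratios of PCB126 over Control of 0.415 on the non-globin scale and 0.747 (0.601 to 0.919) on the nuclear mRNA scale, and Isg15 had 706 and 37 UMIs with 0.806 and 1.45 (1.014 to 2.02). The MHC class I genes H2-K1 and B2m gave 163 and 14, and 319 and 8 UMIs, with nuclear mRNA ratios of 2.38 and 0.695. The list as a sum was 0.533 times the Control level on the non-globin scale and 0.961 times (0.821 to 1.12) on the nuclear mRNA scale.

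The 32 Control members with at least 250 genes differed from the other 2650 by list. Their endothelial list stood at 2840 CPM against 298 and their ribosomal protein genes at 39786 against 18213, while heme synthesis genes were at 14002 and 12885. Their hepatocyte list was at 4039 against 5440, their B and plasma cell list at 1043 against 1886 and their monocyte list at 111 against 160. The neutrophil list stood at 3994 CPM against 1317, but 139 of its 180 UMIs lay in 1 member, and without that member, an alternative added after the values were seen, it stood at 938. Barcodes of 30% to 50% globin in the Control library, outside the members, had a neutrophil list level of 26605 CPM, against 1515 CPM in members of 50% to 60% globin.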
